A study of Mus musculus with 6 samples.

Results

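Mesothelial cells of the control uterus were examined against the other annotated cells of the same library. They were taken from the deposited cell annotation as cells of the corn oil (CO) library named Mesothelial that passed the authors' quality filter and had a column of counts. This gave 6866 cells of 12253 annotated CO cells, or 56.0% (exact 95% interval 55.2 to 56.9), out of 32387 CO cells with counts and 48699 cells in the series. Epithelial cells made up 21.1% of the annotated CO cells and stromal cells 10.8%.

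The study followed CD-1 mice given corn oil or diethylstilbestrol (DES), a synthetic estrogen, by subcutaneous injection on neonatal days 1 to 5, with uteri taken at 12 months of age. DES was given at 1 mg/kg/day, CO mice were chosen in estrus, and DES-treated mice were in persistent estrus. The single-cell libraries, 1 for each treatment, pooled the uterine horns of 2 CO mice and of 4 DES mice, and 2 sections of each treatment, cored from frozen blocks to fit the capture area, were measured by spatial transcriptomics. For the single cells, horns were slit lengthwise, incubated in trypsin, and the remaining tissue was taken out, so the cell shares above are shares of what was released into suspension. No p-value can be given for 1 library against another. Levels are counts of unique molecular identifiers (UMIs) in a cell type scaled to counts per 1000000 (CPM), summed over its cells, and the 95% intervals of levels, ratios and shares cover counting error only. A 3′ tag count is not scaled to transcript length, so each gene was compared between cell types, and the order of levels between genes was not read.

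Mesothelium is the flat epithelium that covers the peritoneal organs, the serosal surface of the uterus included. It derives from the coelomic epithelium, carries keratins together with mesenchymal genes such as vimentin, and is known for secreting lubricants, matrix and complement proteins. The uroplakins were named for the urothelium of the bladder, and Upk3b and Upk1b are also widely used to mark mesothelium.

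The 6 markers lie at separate places in the mouse genome (mm10, GENCODE M21 gene bodies). Upk3b is at chr5:136038496-136046487 on the plus strand and Lrrn4 at chr2:132868305-132880891 on the minus strand. Gpm6a is at chr8:54954843-55060871 on the plus strand and Upk1b at chr16:38773184-38800328 on the minus strand. Rspo1 is at chr4:124986430-125009099 on the plus strand and Msln at chr17:25748613-25754378 on the minus strand. The upstream sequences of Upk3b, the marker found in the most mesothelial cells, and of Lrrn4, the marker with the highest ratio over other cells, are printed 5′ to 3′ in the direction of transcription, as given by RefSeq on GRCm38.p6, at chr5:136038246-136038495 and chr2:132880892-132881112. Capitals mark GGAATG on either strand (read as CATTCC on the other), the core recognised by TEAD transcription factors.

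Upk3b: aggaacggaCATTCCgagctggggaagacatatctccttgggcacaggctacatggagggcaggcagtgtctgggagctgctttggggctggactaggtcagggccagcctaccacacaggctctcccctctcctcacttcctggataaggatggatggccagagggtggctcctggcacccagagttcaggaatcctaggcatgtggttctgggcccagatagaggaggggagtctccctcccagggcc
Lrrn4: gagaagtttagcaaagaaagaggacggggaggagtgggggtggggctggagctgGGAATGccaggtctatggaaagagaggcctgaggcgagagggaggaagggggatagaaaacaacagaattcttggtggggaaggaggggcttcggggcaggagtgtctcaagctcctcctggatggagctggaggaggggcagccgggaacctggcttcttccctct

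The letters GGAATG were found in the up to 250 bases before the start in at least 1 window of 3 of the 4 markers with a RefSeq window (Upk3b, Lrrn4 and 1 of the 2 windows of Gpm6a, not Rspo1), and in 12.6% of all 32851 such windows. A match is a description of the letters and shows no binding.

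The CO mesothelial cells held 83100966 UMIs, where the median cell had 10436 UMIs, 3326 genes and 6.28% of its UMIs from mitochondrial genes. The whole CO library held 353460067 UMIs and the whole DES library 288919190. Other annotated CO types had median depths between 3920 UMIs in pericytes and 23458 in epithelial cells, so shares of cells were compared after each cell was thinned to 3000 UMIs, which 6718 of the mesothelial cells allowed. A barcode shared with the DES library was found for 27 CO mesothelial cells, and 8 of these barcodes were mesothelial in both. Over the CO and DES libraries together, the annotation named a further 123 mesothelial cells without a column in the counts, not used here.

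All 6 markers were highest in the cells named Mesothelial among the 9 annotated CO types with at least 50 cells, so the name and its markers went together. The authors formed the types on these same counts, so this is a description. Upk3b stood at 1005 CPM (998 to 1012) in mesothelial cells, 19.8 in epithelial and 26.8 in stromal cells. It was detected in 92.1% of thinned mesothelial cells, against 5.93% of epithelial and 8.14% of stromal cells. Those low shares in other types are the background against which the markers were read. Lrrn4, a leucine-rich repeat membrane protein, reached 439 CPM and 67.1% of mesothelial cells, with 5.06 CPM in epithelial and 6.82 in stromal cells. Gpm6a, a membrane glycoprotein also abundant in neurons, reached 622 CPM and 79.7% of cells. Upk1b, a tetraspanin of the uroplakin group, was at 325 CPM and in 55.5% of cells, so the tag was missing from many cells at this depth.

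Rspo1, a secreted enhancer of Wnt signalling, was at 597 CPM in mesothelial cells, and at 49.8 in stromal cells. Msln, the cell surface glycoprotein that binds Muc16, was at 660 CPM, with 14.2 in epithelial and 16.3 in stromal cells. Over all other annotated CO cells together, the markers were between 32.1-fold (Rspo1, 30.7 to 33.7) and 52.0-fold (Lrrn4, 48.5 to 55.7) higher. Those other cells drew most of their UMIs from epithelial cells. With each other type of at least 50 cells given equal weight, the summed markers were 13.4-fold higher in mesothelial cells in place of 36.9-fold. Among types with at least 50 cells, the next after mesothelial cells was myeloid, at 732 CPM for the 6 markers summed, against 3648 in mesothelial, 120 in stromal and 64.5 in epithelial cells. The 22 Stmn1-hi cells, a small group named by the authors, were at 2839 CPM.

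**Figure D1:**
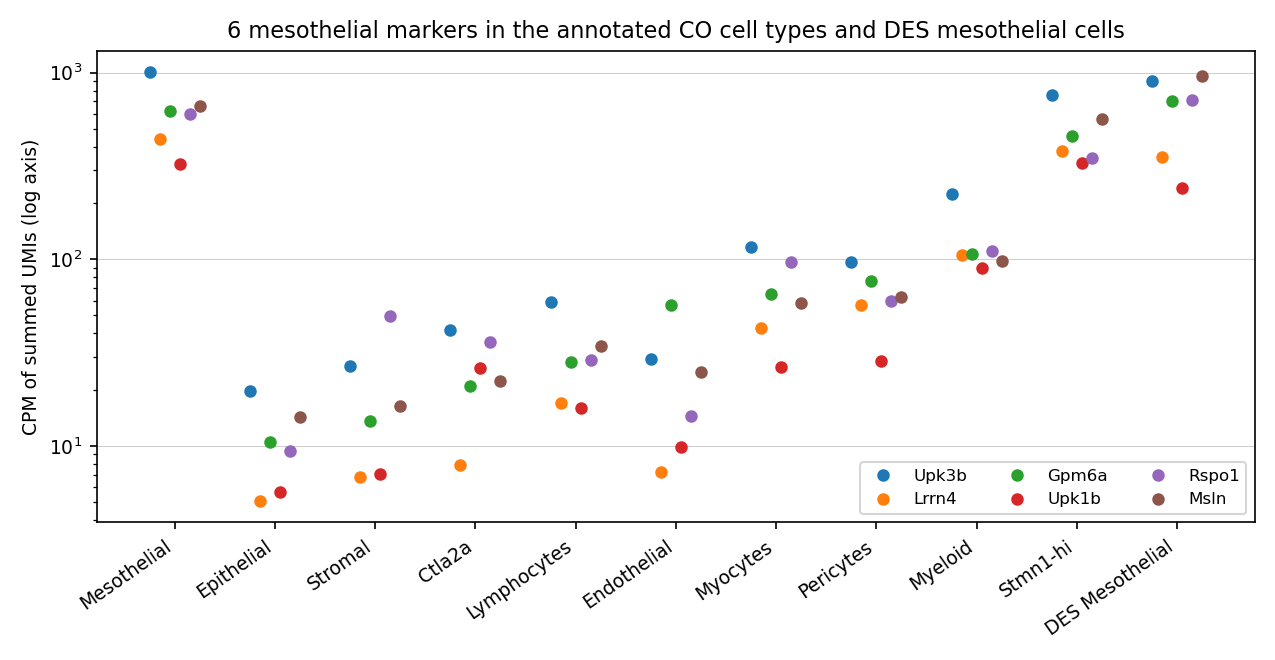
Level of the 6 mesothelial markers (CPM, log axis) in the 10 annotated CO cell types and in DES mesothelial cells. Each marker is higher in CO mesothelial cells (325 to 1005 CPM) than in the CO types with at least 50 cells; the 22 Stmn1-hi cells lie near the mesothelial levels for several markers.

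Most thinned mesothelial cells held several of the markers, whose levels were only weakly correlated over these cells. Pearson r ran from 0.0169 (Lrrn4 and Rspo1) to 0.167 (Upk3b and Gpm6a). A thinned mesothelial cell held a median of 5 of the 6 markers, 1461 cells held all 6, and 11 held none. At least 4 markers were found in 5550 of 6718 mesothelial cells, or 82.6% (81.7 to 83.5). None of 2562 epithelial cells and none of 1303 stromal cells reached 4 markers, which allows shares of up to 0.144% and 0.283% (upper ends of exact 95% intervals). Among all 5172 other annotated cells that could be thinned, 28 did, or 0.541%. These 28 were 14 of the 22 Stmn1-hi cells, 5 of 67 myeloid cells, 3 of 84 myocytes, 3 of 63 pericytes, 2 of 310 lymphocytes and 1 of 439 cells of the type the authors named for Ctla2a. Leaving them out of the comparison group moved the count of genes past 4-fold from 659 to 665.

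Markers of the other cell types were low in the mesothelial cells. Each of 6 stromal markers was detected, from 1.88 CPM for Dpt to 111 for Col6a3, and they summed to 232 CPM against 3976 in stromal cells. The 6 epithelial markers ranged from 4.37 CPM (Msx1) to 96.5 (Cd24a) and summed to 297, against 4820 in epithelial cells and between 382 and 755 in the other types of at least 50 cells. The mesothelial cells thus had the lowest summed epithelial markers of the 9 types. The 6 smooth muscle markers summed to 155 CPM, from 0.987 (Cnn1) to 57.8 (Synpo2), against 15810 in myocytes. The 6 endothelial markers summed to 27.7, from 0.409 (Tie1) to 19.2 (Kdr), against 4910 in endothelial cells. The 6 myeloid markers summed to 19.5 against 10280 in myeloid cells, the 6 pericyte markers to 13.1 against 7271 in pericytes, and the 6 lymphocyte markers to 7.14 against 1098 in lymphocytes. Of the 5 adipocyte markers in the counts, Adipoq, Plin1 and Cidec were at 0 and the sum was 0.361.

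The mesothelial cells differed from the other annotated CO cells in many genes. Of 3634 genes with at least 50 CPM in either group, 355 (9.77%) were more than 4-fold higher in mesothelial cells and 304 (8.37%) more than 4-fold lower, and the median over all of them was 0.09 on the log2 scale. With equal weight for each other type, these numbers were 184 and 249, so the balance of the directions depended on how the other cells were combined. Against stromal cells, 279 of 3582 genes (7.79%) were more than 4-fold higher and 267 (7.45%) lower. Against epithelial cells, 494 of 3696 genes (13.4%) were higher and 350 (9.47%) lower. A set of 193 genes was more than 4-fold above both stromal and epithelial cells, and 14 genes were more than 4-fold below both.

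Besides Lrrn4, the genes with the highest ratios over other annotated cells were outside the marker list. Trdn encodes triadin, a protein of the calcium stores of striated muscle. It was at 799 CPM (793 to 805) in mesothelial and 14.4 in other cells, 55.4-fold higher (52.6 to 58.4), and was found in 81.5% of thinned mesothelial cells. Hpgd, the enzyme that inactivates prostaglandins, was at 1265 CPM against 25.5, 49.5-fold higher (47.6 to 51.5), in 85.6% of mesothelial cells. Nkain4, which encodes a partner of the sodium pump, was at 283 CPM and 49.9-fold higher. Other genes of this group were Tm4sf5, Hoxc8, Stk26, Lgals2, Flrt1, Fam180a, Cxcl9, Sox6, Nxph1, Tmeff2 and Car3, each between 40.7-fold (Car3) and 48.4-fold (Tm4sf5) higher. Car3, carbonic anhydrase 3, was at 105 CPM, and Sox6, a transcription factor, at 98.0.

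Genes with at least 50 CPM in mesothelial cells were also set against each other type of at least 50 cells in turn, which leaves out the 22 Stmn1-hi cells. Of these 2980 genes, chosen for their mesothelial level, 738 were highest in mesothelial cells, and 41 were more than 4-fold above the next type. Fmo2, a flavin-containing monooxygenase, led them at 1552 CPM and 7.92 times the next type, with 1105 CPM in the Stmn1-hi cells. Msln followed at 6.78 times and Bst1, a surface enzyme that acts on NAD, at 6.74 times. Further genes of this kind were Fibin (6.66), Fam180a (6.58), Clec3b (6.19), Lgals2 (5.87), Gpm6a (5.81), Sema3d (5.78) and Rspo1 (5.41). The glycoprotein gene Pdpn, a marker shared by mesothelium and lymphatic vessels, was at 5.17 times the next type.

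The lowest ratios to other annotated cells fell on genes known from several other cell types. The immunoglobulin genes Jchain (7.82 against 468 CPM, 59.8-fold lower) and Igkc (46.2 against 2064 CPM) were among them. So were Lyz2 of myeloid cells (34.2-fold lower) and Actg2 of smooth muscle (1.56 against 65.4 CPM). Ccl11, the eosinophil attractant eotaxin, was at 2.61 CPM in mesothelial cells and 947 in stromal cells. Hsd11b2, which inactivates glucocorticoid, was at 6.15 CPM against 1145 in stromal cells, and Mfap5, of the elastic fibres, at 5.51 against 1207.

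Above stromal cells stood Tmeff2 (138-fold, 59.0 to 424), Sox6 (82.2-fold), Nxph1 (71.0-fold), Trdn (61.7-fold), Fmo2 (1552 against 27.8 CPM, 55.9-fold) and Slpi (1055 against 20.6 CPM, 51.2-fold). Slpi encodes a secreted inhibitor of leukocyte proteases. Far below stromal cells stood Wnt16 (0.265 against 106 CPM, 399-fold lower), Foxl2 (0.517 against 174 CPM, 336-fold lower) and Crabp1 (1.34 against 398 CPM, 298-fold lower). Foxl2 is a forkhead factor of ovary and uterine stroma, and Crabp1 binds retinoic acid in the cytoplasm. Kcnk2, a potassium channel gene, was 446-fold lower and Ccl11 363-fold lower.

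Against epithelial cells, the high ratios fell on Trdn (112-fold), Hpgd (99.6-fold), Hoxc8 (96.7-fold) and Bmp4. Bmp4, a secreted morphogen, was at 190 CPM against 2.08, 91.2-fold higher. Lpl, the lipoprotein lipase, was at 585 CPM against 7.09, 82.4-fold higher, and Dcn, the matrix proteoglycan decorin, at 17670 CPM against 216, 81.8-fold higher. Below epithelial cells stood Lrrc31 (39.7-fold lower), the uterine gland proteases Prss28 (36.4-fold) and Prss29 (29.3-fold), Spink1 (28.3-fold) and Mecom, a transcription regulator (10.4 against 253 CPM, 24.3-fold).

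The 10 genes with the most UMIs in the mesothelial cells, mitochondrial genes left out, included Dcn, Malat1, Crip1, Tmsb4x, Tpt1, S100a6, Rplp1, Eef1a1 and Rpl41. Such counts depend on tag capture as well as abundance. Dcn was at 17670 CPM (17650 to 17700) and at 8859 in stromal cells. The LIM domain gene Crip1 was at 12280 CPM against 1149 in other annotated cells, and the calcium-binding protein gene S100a6 at 6024 against 767.

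Gene lists are described by how many of their members differed. A gene under 50 CPM in the comparison cells entered a ratio only by being high in mesothelial cells, and the reverse, so these counts describe the lists and support no difference between a list and other genes. Of 20 genes known from mesothelium in other organs, 15 reached 50 CPM in mesothelial cells and 5 did not. All 15 passed the floor in mesothelial cells, so no count past 4-fold is given for them. Wt1, the coelomic transcription factor, was at 239 CPM, with 106 in stromal cells and 243 in the Ctla2a type, so it did not mark mesothelial cells alone. Bnc1 and Myrf, transcription factors of mesothelium, were at 150 and 112 CPM. Muc16, the mucin that Msln binds, was at 98.3 CPM, Gas1 at 1230, Gpc3 at 310 and Cldn15 at 349. Low members were Prg4, the lubricin gene, at 11.6 CPM and Podxl at 16.9, and Calb2, which encodes calretinin, was at 0. Among the 6 uroplakin genes, Upk3b and Upk1b were high, whereas Upk1a was at 0.253 CPM, Upk2 at 0.0241, Upk3bl at 1.53 and Upk3a at 0.

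The cells carried keratins and vimentin together, with low levels of classical epithelial junction genes. Krt8 stood at 539 CPM in mesothelial, 1549 in epithelial and 188 in stromal cells. Krt18 stood at 321, 686 and 77.2 CPM in the same order, Krt19 at 1057, 1229 and 182, and Krt7 at 519, 996 and 105. Each of these keratins was thus between the stromal and the epithelial level. Vim was at 1288 CPM, above 949 in stromal and 19.4 in epithelial cells. Cadherin use differed by type, with Cdh1 (E-cadherin) at 15.9 CPM against 241 in epithelial cells, Cdh3 (P-cadherin) at 136 against 1.85, and Cdh11 at 333 against 590 in stromal cells. Of 24 keratin and junction genes, 19 passed the floor against epithelial cells. The 4 more than 4-fold higher (13.4% of all genes) were Cdh3, Cdh11, Cldn15 and Vim. The 7 more than 4-fold lower (9.47% of all genes) were Cdh1, Epcam, Cldn3, Cldn4, Cldn7, Cldn10 and Dsp. Cldn15 was at 349 CPM against 6.05 in epithelial cells, and F11r, a tight junction protein gene, at 219 against 125.

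Matrix genes differed in both directions from stromal cells. Of the small leucine-rich proteoglycans, Lum was at 3330 against 1065 CPM, Dcn at 17670 against 8859, Bgn at 624 against 415, Ogn at 1158 against 1071, and Fmod at 74.8 against 2.56 (29.3-fold). Mgp, an inhibitor of calcification, was at 1275 against 122 CPM, and Efemp1, a fibulin, at 548 against 29.4. Collagen genes named here were lower, with Col1a1 at 591 against 4182 CPM, Col1a2 at 1273 against 4707, Col6a3 at 111 against 2025 and Col15a1 at 1.37 against 200. Sparc was at 4899 and 4733 CPM. Over the 31 members past the floor, 3 were more than 4-fold higher (Fmod, Mgp and Efemp1), a share near the 7.79% of all genes, and 9 were lower against 7.45% of all genes, with a median of -0.97 on the log2 scale beside 0.14 over all genes. Among contractile genes, Tagln was at 466 CPM and Acta2 at 154, while the smooth muscle myosin gene Myh11 was at 2.76.

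**Figure D2:**
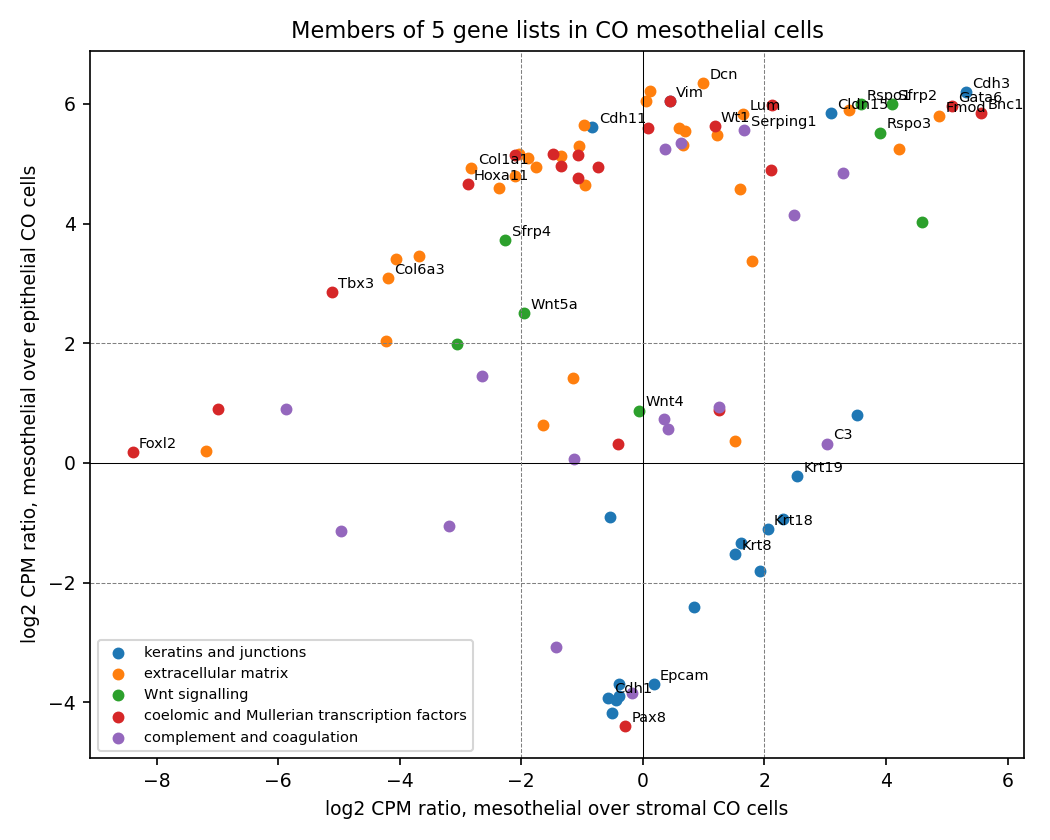
Ratio of mesothelial to stromal cells (x axis, log2) and of mesothelial to epithelial cells (y axis, log2) for members of 5 gene lists, with dashed lines at 4-fold. Matrix genes spread to both sides on the x axis (3 past 4-fold higher and 9 lower), and Krt7, Krt8, Krt18 and Krt19 lie below 0 on the y axis and above 0 on the x axis.

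Transcription factors of coelomic and Mullerian tissues went both ways against stromal cells. Of the 31 in the counts, 19 passed the floor, among them Bnc1 of the list above. Gata6 was at 243 CPM against 7.16, and Bnc1, Bnc2 and Meis2 were the other 3 more than 4-fold higher (7.79% of all genes). The 5 more than 4-fold lower (7.45% of all genes) were Foxl2, Zeb2, Tbx3, Hoxa11 and Osr1, with Zeb2 at 3.23 against 411 CPM, Tbx3 at 3.74 against 130 and Hoxa11 at 7.39 against 54.4. Hoxa10 was at 120 CPM against 252. Pax8, a marker of Mullerian epithelium, was at 3.62 CPM against 76.0 in epithelial cells. The posterior gene Hoxd11 was at 96.1 CPM.

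Of 12 prostaglandin genes, 5 reached 50 CPM in mesothelial cells, and only these entered the ratios to stromal cells. Beside Hpgd, Ptgis, the prostacyclin synthase, was at 393 CPM against 14.7 in stromal cells, with 255 in myocytes. Ptgs1 was at 74.5 CPM, Pla2g4a, which releases arachidonic acid, at 83.5, and the prostaglandin E receptor gene Ptger3 at 98.0, while Ptger4 was at 7.79.

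Of 29 Wnt genes, 8 passed the floor against stromal cells. The 4 more than 4-fold higher (7.79% of all genes) were Rspo3 (71.4 CPM), Sfrp1 (209 CPM), Sfrp2 and Rspo1, itself 1 of the 6 markers. Sfrp2, a secreted Wnt antagonist, was at 539 CPM against 31.7 in stromal cells and 410 in the Ctla2a type. Axin2, a feedback target of Wnt signalling, was at 11.4 CPM against 94.8 in stromal cells, and Sfrp4 was the other member more than 4-fold lower, against 7.45% of all genes. Of the ligands, Wnt5a was at 189 CPM against 731 in stromal cells, Wnt4 at 90.3, Wnt2b at 7.04 and Wnt7a at 0.505. The antagonist genes Dkk1 and Wif1 were at 0.

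Growth factor genes of the mesothelial cells included Fgf1 at 262 CPM against 7.16 in stromal cells and Fgf9 at 171 against 3.58. Pdgfa was at 150 CPM and Ptn, pleiotrophin, at 132. Of the 36 genes of this list, 20 passed the floor. These 4 and Bmp4 were more than 4-fold above stromal cells (7.79% of all genes), and 5 were more than 4-fold lower (7.45% of all genes). The binding protein gene Igfbp6 was at 2703 CPM against 859 in stromal cells, and Igf1 at 374 against 778. Both receptors for platelet-derived growth factor were low, with Pdgfra at 3.13 CPM against 265 in stromal cells and Pdgfrb at 4.07, and Vegfa was at 8.08 against 97.7. Bmp7 and Inhba were the other members more than 4-fold lower, and Igf2 was at 0.

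Of the steroid receptor genes, Esr1, estrogen receptor alpha, was at 171 CPM in mesothelial cells, 227 in epithelial and 233 in stromal cells. Pgr, the progesterone receptor gene, was at 12.2 CPM, against 75.9 in epithelial and 435 in stromal cells, and it was more than 4-fold below both. Esr2 was at 0. In the retinoid list, the binding protein gene Rbp4 was at 205 CPM against 28.0 in stromal cells. The retinoic acid synthases were lower than in stromal cells, Aldh1a2 at 85.0 against 1217 CPM and Aldh1a1 at 76.3 against 309.

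Of 21 complement and coagulation genes, 9 reached 50 CPM in mesothelial cells. C3 was at 2166 CPM, with 265 in stromal and 1730 in epithelial cells, and C2 at 344 with 35.2 in stromal cells. C4b was at 273 CPM, and Serping1, an inhibitor of the first complement component, at 1408 against 442 in stromal cells. C2, C4b, C1s1, C1ra and Serping1 were more than 4-fold above other annotated cells, and Cfi and F3 more than 4-fold lower, among 12 past the floor (9.77% and 8.37% of all genes). Against stromal cells, 15 passed the floor. There C2, C3 and C4b were more than 4-fold higher (7.79% of all genes). Thbd, Plau, Serpine2 and Serpinf1 were more than 4-fold lower (7.45% of all genes). Of 12 secreted defence genes, 8 passed the floor against other annotated cells. Slpi and Il18 were more than 4-fold higher (9.77% of all genes), and Il18 was at 218 CPM against 6.65 in stromal cells. Lcn2, Wfdc2, Plac8 and Ltf, all high in epithelial cells, were more than 4-fold lower (8.37% of all genes). Of 9 chemokine and cytokine genes past the floor, none was more than 4-fold above stromal cells (7.79% of all genes) and 3 were lower (7.45% of all genes), Ccl11, Cxcl14 (85.8 against 1308 CPM) and Ccl7 (21.4 against 724 CPM).

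Of the genes of dividing cells, Mki67 was at 1.28 CPM and Top2a at 3.97. The 15 cell cycle genes summed to 255 CPM, within the range of 132 (stromal) to 1504 (myeloid) over the other types of at least 50 cells. In the 22 Stmn1-hi cells, outside that range, they summed to 6110 CPM. Those cells also held the 6 mesothelial markers, at 2839 CPM, but were annotated apart from the mesothelial cells. Of 20 genes for water and ion transport and for the cell surface, 11 passed the floor against other annotated cells. Muc16 was the 1 more than 4-fold higher, a share near the 9.77% of all genes, and 7 were lower, against 8.37% of all genes. Sdc4 was at 655 CPM, while Has1, a hyaluronan synthase gene, was at 7.76 and Aqp1, the water channel gene of many serosal surfaces, at 13.5. The 19 immediate early genes summed to 5564 CPM, within the range of 2227 to 10300 over the other types of at least 50 cells.

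The mesothelial cells were not uniform. To describe them without reusing the same counts, the UMIs were divided at random into 2 equal sets, cells were clustered on 1 set, and levels were read from the other. This gave 7 sub-clusters of 2043, 1744, 1067, 838, 732, 412 and 30 cells. The smallest held 3 to 5 UMIs for each of its leading genes and is not described further. The number depended on the resolution, with 12 sub-clusters at double the resolution.

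Sub-cluster 2, 25.4% of the cells, stood furthest from the rest by its genes among those of more than 30 cells, with 28 genes more than 4-fold above the other mesothelial cells. Its leading genes were Fgfbp1, which releases fibroblast growth factors from matrix, at 126 against 4.17 CPM (30.2-fold, 25.3 to 36.3), and Stmn2, a microtubule regulator best known from neurons, at 89.2 against 4.97. Pde10a was at 81.9 CPM, the serotonin transporter gene Slc6a4 at 66.2 and the interferon-inducible gene Ifi205 at 169. Levels of other named genes moved with it. Igfbp5 was at 1583 CPM (5.42-fold), Klf2 at 523 (3.99-fold), Igfbp6 at 5703 (2.81-fold), C3 at 3725, Wt1 at 425 and Fgf1 at 469.

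The same cells were low in matrix and in several genes that were high in other mesothelial cells. Hal, which breaks down histidine, was at 8.12 CPM in sub-cluster 2 and 248 in sub-cluster 1. Sfrp2 was at 54.2 against 823 CPM, Fmo2 at 193 against 2454 and Fn1 at 27.6. Sparc was at 1573 CPM in sub-cluster 2 and between 4253 and 5981 in the other 5 described. The 32 matrix genes summed to 25110 CPM, against 42240 in sub-cluster 1. Their mesothelial markers were present, with Upk3b at 1250 CPM and Rspo1 at 375. These cells had a median of 6626.5 UMIs, below the 11265 of sub-cluster 1, and the 6 epithelial markers summed to 456 CPM, above 179 to 383 in sub-clusters 1, 3, 4 and 5 and below 483 in sub-cluster 6. Epcam was at 184 CPM in sub-cluster 2 (3.34-fold), against 44.2 to 92.7 in the other 5 described, and the part of RNA from epithelial cells was not tested. At lower resolution and with another split, 99.4% of its cells stayed together in 1 sub-cluster, and at double the resolution 41.9% did.

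Sub-cluster 3, 15.5% of the cells, was led by chemokines. Cxcl1, a neutrophil attractant, was at 406 against 22.4 CPM (18.2-fold), Ccl2 at 116 (14.1-fold), Cxcl10, an interferon-induced chemokine, at 423 (12.2-fold), and Ccl7 at 84.7 (11.2-fold). Immediate early genes, which many cells induce within minutes of a stimulus or of dissociation, summed to 12440 CPM here and 11130 in sub-cluster 2, against 1799 to 2700 in sub-clusters 1, 4, 5 and 6. The genes of sub-clusters 2 and 3 thus came with high immediate early genes, whose part in these differences was not tested.

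The other sub-clusters differed by less. At the lower resolution, sub-clusters 1, 4 and 5 fell into 1 group, of which they made up 53.2%, 21.6% and 18.8%, and 51.7% of sub-cluster 6 joined the same group. Sub-cluster 1, 29.8% of the cells, had no gene past 4-fold and was led by Igkc, present in 3.33% of its cells and 3.57% of other mesothelial cells, and by Fmo2 (2454 against 1166 CPM), Hal, Itgbl1 and Sfrp2. Sub-cluster 4, with a median of 21170.5 UMIs, was led by Ctla2a (407 against 92.1 CPM, 4.43-fold) and S100g (445 CPM, 3.92-fold), found in 15.2% and 15.9% of its cells, followed by Cxcl12, Inhbb and Col12a1. Ctla2a was at 36930 CPM in the type named for it and S100g at 868 in epithelial cells, and the part of RNA from those cells was not tested. Sub-cluster 5 was led by Cdkn1a (2.44-fold) and Phlda3, both targets of p53, with Ptn, Mgp (2472 against 1177 CPM) and Olfml3. Sub-cluster 6 had a median of 14.4% mitochondrial UMIs, against 5.36 to 6.84% in the other 5 described, and was led by Fut9, Fcgbp, Pik3c2a, Elf3 and Tmem213. Fcgbp, a mucus protein gene, was at 134 CPM in it and at 964 in epithelial cells.

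**Figure D3:**
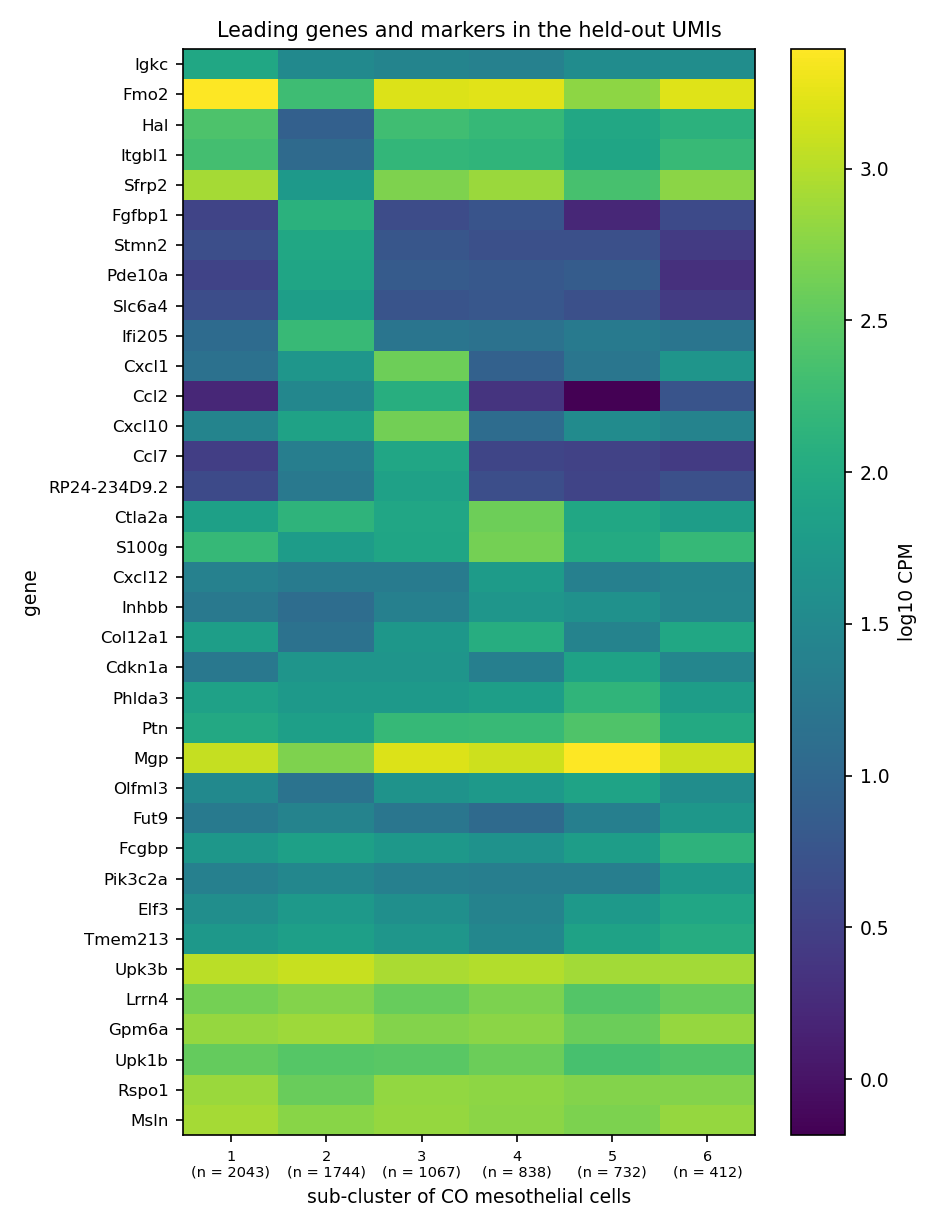
Levels (log10 of CPM, from the UMIs not used to cluster) of leading genes and mesothelial markers in the 6 sub-clusters with more than 30 cells. The marker rows are bright in each sub-cluster, Fgfbp1 and Stmn2 stand out in sub-cluster 2 (126 and 89.2 CPM) and Cxcl1 and Cxcl10 in sub-cluster 3 (406 and 423 CPM).

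Mitochondrial genes left out, the 12 most variable genes among thinned cells, relative to genes of like mean, were Igkc, Ctla2a, S100g, Fos, Malat1, Mgp, Hspb1, Tmsb4x, Cxcl10, Ier3, Egr1 and Fmo2. The first 3 were concentrated in few cells, with 38.5% of Igkc UMIs, 53.5% of Ctla2a UMIs and 45.8% of S100g UMIs in the top 1% of cells. Igkc was at 90880 CPM in lymphocytes. Fos was found in 58.0% of cells and Fmo2 in 64.5%, so their variation was spread over many cells.

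DES mesothelial cells, 3837 from the other library, were set beside the CO cells. The DES library pooled other mice and was a separate preparation, so treatment and library cannot be told apart. Of 3212 genes, 77 (2.4%) were more than 2-fold higher in CO and 52 (1.62%) more than 2-fold lower. None of the 6 markers passed 2-fold, and their log2 ratios of CO over DES ran from -0.54 (Msln, 660 against 956 CPM) to 0.43 (Upk1b, 325 against 242 CPM). The share of thinned cells with Upk3b was 92.1% in CO and 91.0% in DES.

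Fn1, which encodes the matrix protein fibronectin, led the genes higher in CO. It was at 306 CPM in CO and 12.9 in DES mesothelial cells, 23.8-fold higher (22.2 to 25.5), and at 12.2 and 12.7 CPM in CO and DES epithelial cells. In other CO types it was at 588 CPM (stromal), 442 (lymphocytes), 380 (myocytes), 327 (Ctla2a), 142 (pericytes), 84.4 (myeloid) and 41.8 (endothelial). The part of RNA from those cells was not tested. The basement membrane collagen genes Col4a1 (262 against 45.8 CPM) and Col4a2 (118 against 33.8 CPM) were also higher in CO. Greb1, an early estrogen-induced gene, was at 80.6 against 11.4 CPM (7.09-fold), Lgals7, a galectin, at 209 against 18.7, and Cxcl1 at 92.0 against 6.27 (14.7-fold, 13.3 to 16.3). Within CO, Cxcl1 was at 406 CPM in sub-cluster 3 and 22.4 in the other mesothelial cells, in the UMIs not used to cluster. A gene known by its clone name, RP24-244P2.1, was 9.55-fold higher.

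Other genes higher in CO were most abundant in epithelial cells. Sprr2f was at 858 against 77.8 CPM in mesothelial cells and 14410 against 2860 in epithelial cells. Lcn2, lipocalin 2, was at 460 against 76.2 CPM in mesothelial cells, 7291 against 2542 in epithelial cells, and 617 in CO stromal and 757 in CO endothelial cells. Prap1 was at 363 against 54.2 CPM and 7074 against 2343 in the same order. Sprr2a3 and the calcium-binding protein gene S100g were also among the 10 highest ratios, at 59.2 against 2.82 CPM and 189 against 17.3 CPM. Beside these, the 6 epithelial markers, none at 0, summed to 297 CPM in CO and 125 in DES mesothelial cells, with Epcam at 80.2 and 28.3. The part of RNA from epithelial cells in these ratios was not tested.

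Immediate early genes were also higher in CO, 11 of 19 past 2-fold against 2.4% of all genes, with a median of 1.22 on the log2 scale. Fos was at 1080 against 455 CPM, Egr1 at 467 against 84.9 and Junb at 452 against 149. The 19 genes summed to 5564 CPM in CO and 2679 in DES mesothelial cells. In epithelial cells of the same libraries they summed to 7740 and 2858 CPM, and in lymphocytes to 6601 and 6824. The difference was thus not particular to mesothelial cells. Without the cells of sub-cluster 3, 66 genes were more than 2-fold higher in CO and 50 lower, and without those of sub-cluster 2, 75 and 71.

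Of the genes lower in CO, Fmo1, a flavin-containing monooxygenase, had the lowest ratio, at 8.92 CPM in CO and 185 in DES, 20.8-fold lower. Carboxypeptidase E (Cpe) was 6.76-fold lower, Prps2 5.66-fold, Clec3b (100.5 against 468 CPM) 4.66-fold and Car3 (105 against 462 CPM) 4.41-fold. Cxcl9 (54.7 against 242 CPM) and Igtp (17.3 against 63.0 CPM), both induced by interferon gamma, were 4.43-fold and 3.65-fold lower. Dbp, of the circadian clock, Myl7 and Ces1d completed the 10 lowest ratios. Among the fixed lists, Gpc3 was at 310 CPM in CO against 710, Efemp1 at 548 against 1124, and Slpi at 1055 against 2866, with Cd74 (43.0 against 115 CPM) and H2-Ab1 (27.0 against 73.2 CPM) lower as well. Myeloid markers moved with the last pair, summing to 19.5 CPM in CO and 55.9 in DES mesothelial cells, and their part was not tested.

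**Figure D4:**
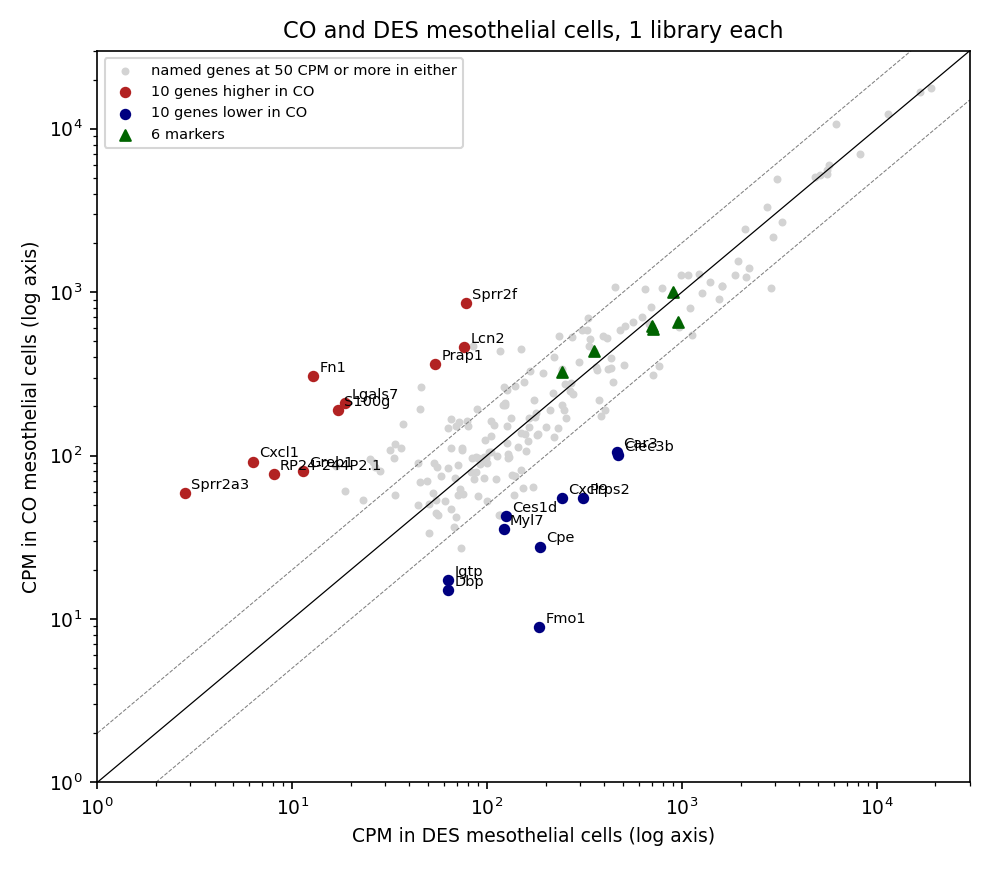
Level of the named genes with at least 50 CPM in either group, in DES (x axis) and CO (y axis) mesothelial cells. Axes are CPM on log scales, dashed lines mark 2-fold, and values below are CO against DES. The 6 markers (green triangles) lie between the dashed lines, and Fn1 (306 against 12.9 CPM), Sprr2a3 (59.2 against 2.82 CPM) and Fmo1 (8.92 against 185 CPM) lie far from the diagonal.

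In the spatial sections, mesothelial markers were rare. The 2 CO sections held 12506177 and 11032957 UMIs in 1433 and 1834 spots (A and B), and the 2 DES sections 9117099 and 9880021 UMIs in 1575 and 1357 spots. A spot covers several cells, so the number of mesothelial cells, their RNA per cell and a marker held by other cells cannot be told apart. With 2 sections against 2 the smallest exact p is 0.333, so no test was made. The 6 markers summed to 36.5 and 63.6 CPM in the CO sections and to 54.8 and 56.4 in the DES sections. Most of the CO signal was Rspo1, at 29.3 and 55.7 CPM, with 27.9 and 20.7 in DES. A CO B region of 363 spots with Myh11 at 4627 CPM held 205 UMIs of Rspo1 and 2 of the other 5 markers. The remaining 5 markers, a sum chosen after seeing the data, were at 7.28 and 7.89 CPM in CO and 27.0 and 35.7 in DES, from 91, 87, 246 and 353 UMIs. Upk3b was at 2.64 and 2.09 CPM in CO and 18.8 and 23.1 in DES, and Upk1b at 0.560 and 0.997 against 2.63 and 5.16. Msln was at 1.999 and 2.81 CPM against 3.07 and 4.45, and Gpm6a at 1.44 and 1.81 against 2.30 and 2.13. Lrrn4 was at 0.640 and 0.181 against 0.219 and 0.911 CPM.

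Within the CO sections, most UMIs of the 5 markers lay in 2 regions each. Few spots held them, as the 91 UMIs of CO A and 87 of CO B lay in 43 and 39 spots, with at most 10 and 17 in a spot. In CO A, a region of 129 spots led by Akr1cl, Ccl21a, F13a1, Mmrn1 and Cldn5 held 68.7 CPM (49.95 to 92.3), 48.4% of the marker UMIs with 5.12% of all UMIs. In CO B, a region of 222 spots led by Ighg2c, Cd209g, Inmt, Fabp4 and Ccl21a held 61.9 CPM (46.1 to 81.4), 58.6% of the marker UMIs with 7.47% of all. Ccl21a and Mmrn1 are known from lymphatic vessels. The next regions, at 16.9 CPM in CO A and 14.1 in CO B, held 38.5% and 24.1% of the marker UMIs with 16.6% and 13.5% of all, and had the smooth muscle gene Myh11 at 7200 and 6136 CPM.

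In the DES sections, the signal was spread over more regions and was mostly Upk3b. In DES A, regions of 286 and 332 spots held 32.9% and 24.8% of the marker UMIs at 33.3 and 17.6 CPM, of which 68 of 81 and 54 of 61 UMIs were Upk3b. Both regions had Lrrn4 and Gpm6a at 0, and the epithelial marker Epcam was at 550.4 and 504.5 CPM. A region of 166 spots with Myh11 at 3641 CPM held 15.9% at 72.7 CPM (51.7 to 99.4), with Gpm6a at 22.4 and Msln at 18.6 CPM. In DES B, a region of 47 spots led by the fat cell genes Cfd, Adipoq and Cidec, with Car3 and Nkain4, held 341 CPM (235 to 479), but 9.35% of the marker UMIs. A region of 261 spots with Krt14 at 3054 CPM held 44.5% of them at 59.5 CPM, of which 122 of 157 UMIs were Upk3b, with Msln at 3.03 and Gpm6a at 0.757 CPM. Krt14, a keratin of stratified epithelium, was at 4175 and 2019 CPM over the DES sections and 1.68 and 59.7 over the CO sections. In the DES A regions of 286 and 332 spots, Krt14 was at 1442 and 7030 CPM. A DES B region of 228 spots held 19.55% of the marker UMIs at 22.1 CPM, with Krt14 at 839 CPM. Of its 69 marker UMIs, 51 were Upk3b. Another DES B region, of 106 spots, had Krt14 at 3762 CPM and the markers at 6.07 CPM. Summed over all DES epithelial single cells, Upk3b was at 12.0 CPM. Which cells held Upk3b in these regions was not tested.

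**Figure D5:**
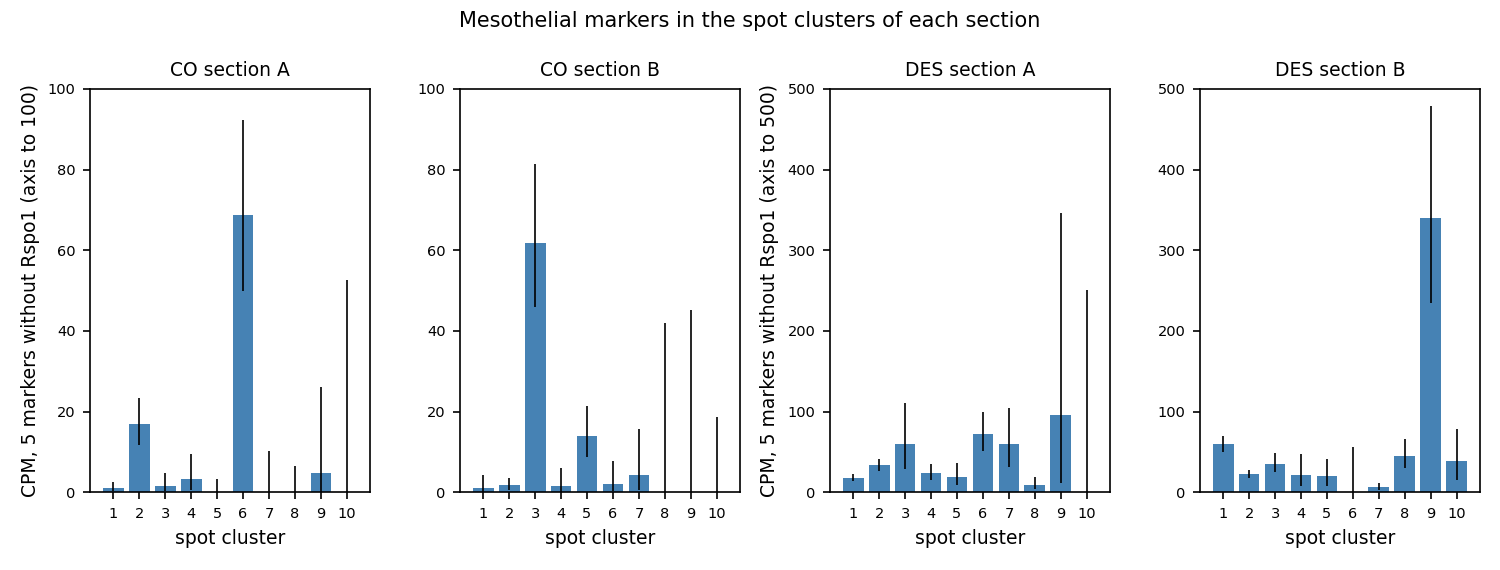
Level of the 5 markers without Rspo1 (CPM, bars with exact 95% Poisson intervals, counting error only) in each spot cluster of the 4 sections, with a wider axis for the DES sections. One cluster stands above the others in each CO section (68.7 and 61.9 CPM), and in DES B a cluster of 47 spots reaches 341 CPM.

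Over the spots of the CO sections, genes were ranked by the lower of their CO A and CO B correlations with the markers. The genes most like the 6 summed markers were Acta2 (Pearson r 0.254 in CO A and 0.291 in CO B), Smtn, Ppp1r14a, Tpm2 and Csrp1, all of smooth muscle. Without Rspo1 they were Trf (0.273 and 0.204), Efemp1 (0.183 and 0.154), Prss23, Ccl21a and Lum, chosen after seeing the data. These values describe 1433 and 1834 spots that share a section and differ in depth.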

How the data were processed

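The deposited single-cell and spatial counts are UMI counts per gene and cell or spot, made by the authors with Cell Ranger 3.0.1 and Space Ranger 1.2.2 on mm10 with GENCODE genes. The authors removed doublets, integrated both treatments to name cell types, and clustered the spots; their names were used as deposited. Summed counts of each cell type were expressed as CPM; 95% intervals are exact Poisson for levels, conditional binomial for ratios and Clopper-Pearson for shares. Ratios used genes with at least 50 CPM in either group, without mitochondrial genes. The most abundant and most variable genes were also taken without mitochondrial genes. Sub-clusters came from Leiden clustering (resolution 0.5, 15 neighbours, 20 principal components, 2000 variable genes) in Python 3.11.15 with leidenalg 0.10.2. The random division of UMIs and the thinning used seed 20240. Scripts were tested on simulated data. Named genes were the 6 markers, members of 18 lists, the 15 largest and 10 smallest ratios over other cells, the 10 largest and smallest over stromal, epithelial and DES mesothelial cells, the 10 most abundant and 12 most variable genes, and the 5 leading genes of each sub-cluster and of the spot correlations. The members and lists were chosen with earlier results of these data known. Other members named in sub-clusters were chosen after their values were seen. Untyped cells entered no ratio. A few genes that the rule names are not reported here.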

Additional observations from a re-analysis of the deposited data

Results flagged for a closer look

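Cells outside the annotation also carried the mesothelial markers. The CO library held 20134 cells without a cell type, none of which passed the authors' filter. Of the 14756 deep enough to thin, 2929 held at least 4 of the 6 markers (19.9%, 19.2 to 20.5). Among thinned annotated CO cells the share was 46.9% with the mesothelial cells included and 0.541% without them. These 2929 cells had a median of 13009 UMIs and 3556 genes, with Upk3b at 860 CPM and Dcn at 14600. Their 6 epithelial markers summed to 551 CPM, against 284 in the 5550 mesothelial cells with as many markers, their myeloid markers to 65.3 against 19.6 and their stromal markers to 310 against 233. Why they were not annotated was not tested.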

How the results depend on the processing

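No paired analysis was possible because the results come from no test and each treatment has 1 single-cell library. Of the alternatives to the main values, 28 stayed within the limit set for them and 15 did not. Counts of genes, lists and sub-clusters were allowed a fixed fold, whereas levels, ratios and shares were allowed only the counting interval of the main value. The tally thus mixes unlike limits and does not measure the size of a change. No ratio of the 6 markers turned, but the balance of genes higher (355) and lower (304) against other cells turned under 3 alternatives. A filter of 10 CPM in place of 50 raised the genes past 4-fold from 659 to 1584 (765 higher, 819 lower) against other cells, to 1192 against stromal and to 2049 against epithelial cells, and the genes past 2-fold between CO and DES from 129 to 372, since more genes entered. Equal weight for each other type gave 433 genes (184 higher, 249 lower), and the mean of scaled counts over cells 508 (244 higher, 264 lower). The summed markers were 36.9-fold higher, 28.4-fold by that mean and 13.4-fold with equal weight. Of thinnable annotated cells, 46.9% held at least 4 markers, against the 56.0% annotated. The share of mesothelial cells with at least 4 markers was 82.6% at 3000 UMIs, 96.3% at 5000 and 96.5% without thinning, so depth set it. Double resolution gave 12 sub-clusters in place of 7. Without Rspo1, chosen after seeing the data, the section sums were 7.28, 7.89, 27.0 and 35.7 CPM (CO A, CO B, DES A and DES B). Of alternatives added after seeing the data, leaving out shared barcodes or other cells with 4 markers gave 659 and 665 genes past 4-fold against other cells, and leaving out sub-cluster 2 or 3 gave 146 and 116 past 2-fold between CO and DES. Among values of single markers, sums of the gene lists and shares of sub-clusters, 48 values fell outside the limits set for them and 34 did not. For single markers and list sums the limit was the counting interval, so a small change could count. For sub-clusters it was a fixed share of cells.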
